A study of Mus musculus with 82 samples.

Results

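Hbb-bt (ENSMUSG00000073940), Hbb-bs (ENSMUSG00000052305), Hba-a1 (ENSMUSG00000069919), Hba-a2 (ENSMUSG00000069917) and Alas2 (ENSMUSG00000025270) were followed through 82 RNA-seq libraries of mouse ear, as a measure of how much red cell RNA each ear punch held. They are 5 of the 56941 genes in the deposited tables and were found by their gene names. They were chosen by measured values, as being among the largest falls in imiquimod ears at day 2, so every day 2 value is given as a description with no test. All mice were female C57BL/6J Rj, and the labels give no age. The time course held ears given imiquimod with the drug IDOR-1117-2520 (called drug ears here), imiquimod alone and sham at days 2, 5 and 8, with 6 libraries in each of 9 groups except day 5 sham, which had 4. The start-day experiment held drug ears with the drug from day 0, day 3 or day 5, imiquimod ears and sham ears, with 6 libraries each. Imiquimod, an agonist of the RNA sensor TLR7, was given as a 5% cream once daily from day 0 to day 7, in 8 applications, and IDOR-1117-2520, which blocks the chemokine receptor CCR6, was given by mouth in drinking water. Per the labels the drug began at least 1 day before day 0, or, in the start-day experiment, on the day in the group's name, and all mice that got the drug also got imiquimod. In the start-day experiment the time label is day 8 for most groups, but reads day 3 for the drug from day 5 and day 5 for the drug from day 3. Sham ears are called vehicle in one label. Whole punches hold skin, muscle, cartilage and whatever blood stayed in the vessels, and the labels do not say that mice were perfused or that each library came from another mouse, so p values cover only the spread among these libraries, which may be technical.

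Haemoglobin carries oxygen in red cells as a tetramer of alpha and beta chains, each with a haem group. In adult C57BL/6 mice the alpha chains come from the near-identical genes Hba-a1 and Hba-a2 and the beta chains from the near-identical Hbb-bs and Hbb-bt. Alas2 encodes the erythroid 5-aminolevulinate synthase, the first enzyme of haem synthesis in red cell precursors. Mature red cells have no nucleus but carry leftover messenger RNA, most of it in reticulocytes, the youngest cells in the blood, and healthy adult skin makes no red cells.

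The bases before the start of each gene are shown as background and because the alpha pair cannot be told apart there. A link to the measured levels was not tested for these bases. They are the 250 bases before the gene start in RefSeq's GRCm38.p6, which is not the GRCm39 build of the counts, written 5′ to 3′ on the gene's strand. All 5 genes had an entry. Capitals mark the letters of 4 motifs on either strand. The core read by GATA factors is GATAA, with the reverse complement TTATC on the other strand. The core read by the erythroid factor KLF1 is CACCC, which on the other strand reads GGGTG. The CCAAT box reads ATTGG when turned round, and the TATA box was searched for as TATAA and, on the other strand, as TTATA.
Hbb-bt at chr7:103813924-103814173, minus strand: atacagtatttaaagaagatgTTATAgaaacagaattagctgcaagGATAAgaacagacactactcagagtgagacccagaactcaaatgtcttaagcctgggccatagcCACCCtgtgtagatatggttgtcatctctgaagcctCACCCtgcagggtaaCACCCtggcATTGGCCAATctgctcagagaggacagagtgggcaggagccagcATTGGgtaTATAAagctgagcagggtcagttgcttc
Hbb-bs at chr7:103827929-103828178, minus strand: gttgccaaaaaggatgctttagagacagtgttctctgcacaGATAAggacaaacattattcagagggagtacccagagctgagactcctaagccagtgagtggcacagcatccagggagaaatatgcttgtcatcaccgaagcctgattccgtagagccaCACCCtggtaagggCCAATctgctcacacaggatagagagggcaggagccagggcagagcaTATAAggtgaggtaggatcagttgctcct
Hba-a1 at chr11:32283422-32283671, plus strand: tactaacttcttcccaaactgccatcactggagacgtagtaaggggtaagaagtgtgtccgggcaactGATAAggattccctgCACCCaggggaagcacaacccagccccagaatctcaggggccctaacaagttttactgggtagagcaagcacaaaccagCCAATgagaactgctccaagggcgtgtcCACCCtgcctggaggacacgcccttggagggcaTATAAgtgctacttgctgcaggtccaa
Alas2 at chrX:150547167-150547416, plus strand: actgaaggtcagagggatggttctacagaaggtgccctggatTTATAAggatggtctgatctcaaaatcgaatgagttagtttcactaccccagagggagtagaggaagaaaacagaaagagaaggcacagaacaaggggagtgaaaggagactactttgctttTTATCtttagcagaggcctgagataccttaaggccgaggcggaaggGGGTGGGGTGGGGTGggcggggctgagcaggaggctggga
The Hba-a2 promoter shared a run of 297 of 300 bases with that of Hba-a1 and is not printed. Each of the 5 windows held 1 GATAA. The KLF1 core CACCC matched 3 times before Hbb-bt, 1 time before Hbb-bs, 2 times before Hba-a1 and 3 times before Alas2. All 4 haemoglobin genes held CCAAT and a TATAA close to the start, which begins at position -29 in Hbb-bs and -27 in Hba-a1. Alas2 held no CCAAT in this window, and its matches to the TATA box letters, which overlap, lay near the far end of it. Of 32851 promoter windows of 300 bases (250 before the start and 50 after it), 25.4% held the GATA core, 57.5% the KLF1 core, 37.4% the CCAAT box and 24.9% the TATA box letters, so a match to any of them is common.

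Time course libraries held 13.1 M to 35.4 M counts each, and start-day libraries 24.1 M to 35.5 M. Levels are CPM, counts scaled to the library total, with TMM scaling, a factor per library that corrects for makeup; these factors were 1.06 to 1.15 in sham ears and 0.92 to 1.04 in treated ears, so unscaled CPM gave a smaller gap at day 5 (medians of 297 in drug ears, 403 in imiquimod ears and 119 in sham ears). A gene was called at a Benjamini-Hochberg adjusted p under 0.05 in edgeR's quasi-likelihood test over all tested genes. The time course had 18780 of them and the start-day set 18434, with all 5 members in each. Day 5 sham replicate 19 stood apart from the other sham libraries of its day, and calls that rest on it are given with and without it.

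Red cell RNA was lowest in drug and imiquimod ears at day 2 and highest in them at day 5, with sham ears between. At day 2 the summed level of the 5 genes was 18.6, 21.6 and 52.7 CPM (lowest, median and highest) in drug ears, 12.7, 33.2 and 60.2 CPM in imiquimod ears and 127, 187 and 273 CPM in sham ears. At day 5 it was 290, 318 and 459 CPM in drug ears, 322, 433 and 632 CPM in imiquimod ears, and 197, 105, 114 and 109 CPM in the 4 sham ears. At day 8 it was 163, 206 and 342 CPM in drug ears, 150, 266 and 370 CPM in imiquimod ears and 88.3, 144 and 187 CPM in sham ears. Treated ears thus lay below every sham ear at day 2, above every sham ear at day 5, and overlapped with sham ears at day 8. The summed counts behind these levels were 3542, 3370 and 24918 in drug, imiquimod and sham ears at day 2, 46484, 55303 and 13190 at day 5, and 28267, 24989 and 20378 at day 8. In bulk tissue, fewer red cells in a punch and less of this RNA per red cell cannot be told apart.

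In the start-day experiment the levels lay closer together. The summed level was 123, 153 and 237 CPM with the drug from day 0, 152, 182 and 206 CPM with the drug from day 3, 144, 186 and 322 CPM with the drug from day 5, 168, 238 and 368 CPM in imiquimod ears and 150, 165 and 266 CPM in sham ears. All 5 groups overlapped. The summed counts were 26705, 33420, 37273, 47458 and 35118 in the same order.

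**Figure D1:**
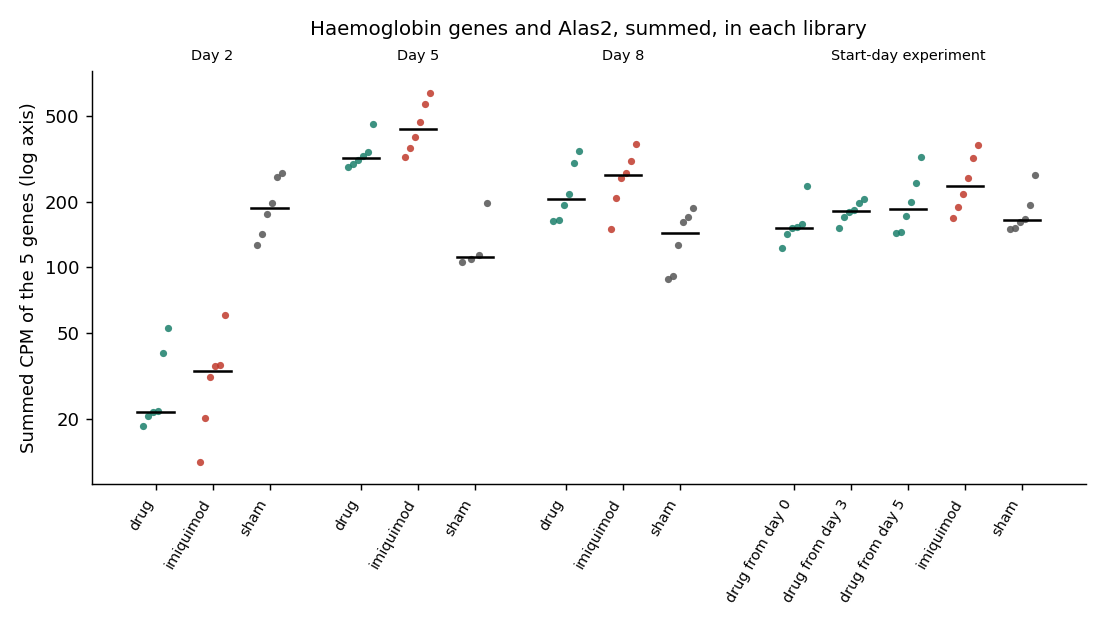
Summed level of the 5 genes in each of the 82 libraries, as TMM-scaled CPM on a log axis, by group; points are libraries in order of value and bars are group medians. Drug and imiquimod ears lie below sham ears at day 2 (medians 21.6, 33.2 and 187 CPM) and above them at day 5 (318, 433 and 111 CPM).

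By median, the 9 time course groups ran in the order day 2 drug, day 2 imiquimod, day 5 sham, day 8 sham, day 2 sham, day 8 drug, day 8 imiquimod, day 5 drug and day 5 imiquimod. Day 2 imiquimod and day 5 sham were the only neighbours in this order whose libraries did not overlap. In the start-day experiment the order was drug from day 0, sham, drug from day 3, drug from day 5 and imiquimod, and every pair of neighbours overlapped. Both orders depend in part on the TMM scaling. By unscaled CPM the start-day sham median, 185, lay above those of the drug from day 0, 3 and 5 (150, 174 and 180). It stayed below that of imiquimod ears, 234. In the time course the unscaled day 2 sham median, 202, lay above that of day 8 drug ears, 192.

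At day 2 all 5 genes were lower in treated ears than in every sham ear. Hbb-bs, the more counted beta gene, had 5.08, 7.34 and 19.02 CPM in drug ears and 3.13, 11.3 and 23.2 CPM in imiquimod ears, against 43.9, 65.8 and 99.0 CPM in sham ears. Hba-a2 had 5.73, 6.48 and 15.3 CPM in drug ears and 4.33, 10.8 and 19.8 CPM in imiquimod ears, against 39.3, 62.3 and 92.4 CPM in sham ears. Alas2 had 0.46, 0.59 and 1.19 CPM in drug ears and 0.33, 1.17 and 1.52 CPM in imiquimod ears, against 2.13, 3.49 and 4.17 CPM in sham ears. The treated ears and the sham ears did not overlap for any of these genes, nor for Hbb-bt and Hba-a1. The fitted log2 fold changes against sham were -2.78 ± 0.33 (SE) for Hbb-bt, -2.82 ± 0.33 for Hbb-bs, -2.45 ± 0.28 for Hba-a1, -2.85 ± 0.30 for Hba-a2 and -2.25 ± 0.30 for Alas2 in drug ears. Those in imiquimod ears were -2.82 ± 0.34, -2.64 ± 0.33, -2.64 ± 0.29, -2.59 ± 0.30 and -1.72 ± 0.29 in the same order of genes. Over all tested genes 20.1% were called lower in drug ears and 28.5% in imiquimod ears, and nothing is read from the members' share, since this contrast chose them. Between drug and imiquimod ears the groups overlapped for every member, with log2 differences from -0.52 for Alas2 to 0.19 for Hba-a1, and 16.5% of all tested genes were called in either direction.

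Other cell types of the punch differed at day 2 as well. The summed level of 12 skeletal muscle markers had medians of 5374 CPM in drug ears, 4356 CPM in imiquimod ears and 6889 CPM in sham ears, and that of 12 cartilage markers had 605, 509 and 1210 CPM. Platelet markers, the other blood element with no nucleus, had summed medians of 43.1, 50.1 and 41.8 CPM, and 15 endothelial markers 428, 416 and 453 CPM. Most counts of the platelet list were of Pf4, Gp1bb, Itga2b and Itgb3 (17554 to 62275 each over all libraries), while Gp9 had 54 and Gp6 90. The platelet sum may thus not follow platelets alone. The part of punch makeup in the member values was not tested.

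At day 5 the direction was the other way, and all 5 genes rose in both treated groups. In drug ears the log2 fold changes against sham were 1.72 ± 0.32 for Hbb-bt (adjusted p = 8.6e-06, edgeR), 1.46 ± 0.33 for Hbb-bs (2.1e-04), 1.27 ± 0.28 for Hba-a1 (1.6e-04), 1.25 ± 0.30 for Hba-a2 (4.4e-04) and 1.25 ± 0.29 for Alas2 (1.8e-04). In imiquimod ears they were 2.22 ± 0.32 for Hbb-bt (adjusted p = 5.1e-08), 1.95 ± 0.34 for Hbb-bs (2.3e-06), 1.65 ± 0.29 for Hba-a1 (2.4e-06), 1.65 ± 0.31 for Hba-a2 (7.3e-06) and 1.68 ± 0.29 for Alas2 (1.2e-06). All 5 members were called higher in each comparison, against 31.1% of all tested genes in drug ears and 34.6% in imiquimod ears, and the 2 comparisons share their sham ears.

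The levels show the gap in each library. Hbb-bt had 20.97, 25.9 and 31.8 CPM in drug ears and 26.99, 31.2 and 53.4 CPM in imiquimod ears, against 11.3, 6.98, 6.34 and 6.51 CPM in sham ears. Hbb-bs had 109, 115 and 169 CPM in drug ears and 116, 167 and 238 CPM in imiquimod ears, against 67.3, 36.5, 38.6 and 36.7 CPM in sham ears. For both beta genes the lowest treated ear lay above the highest sham ear, which was replicate 19 each time.
The alpha genes did the same. Hba-a1 had 62.3, 65.7 and 103 CPM in drug ears and 64.8, 89.0 and 132 CPM in imiquimod ears, against 45.3, 27.8, 25.2 and 22.3 CPM in sham ears. Hba-a2 had 85.1, 106 and 148 CPM in drug ears and 109, 139 and 196 CPM in imiquimod ears, against 69.1, 32.1, 42.3 and 40.7 CPM in sham ears. Alas2, with far fewer counts, kept the groups apart too. It had 4.84, 5.84 and 7.96 CPM in drug ears and 5.46, 7.49 and 12.3 CPM in imiquimod ears, against 4.17, 1.84, 1.49 and 2.76 CPM in sham ears. Leaving out any 1 library, replicate 19 included, left all 5 members called in both comparisons, with log2 fold changes of 1.07 to 1.96 in drug ears and 1.49 to 2.46 in imiquimod ears.

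Drug and imiquimod ears were not separated at day 5. The log2 differences were -0.50 ± 0.26 for Hbb-bt, -0.49 ± 0.28 for Hbb-bs, -0.38 ± 0.24 for Hba-a1, -0.40 ± 0.26 for Hba-a2 and -0.42 ± 0.24 for Alas2, with adjusted p from 0.128 to 0.23 (edgeR). All 5 were on the lower side, and their libraries overlapped. edgeR called 0 of the 5, with 0 at an unadjusted p under 0.05 and 0 called by DESeq2 or limma voom, against 17.2% of all tested genes called lower.

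**Figure D2:**
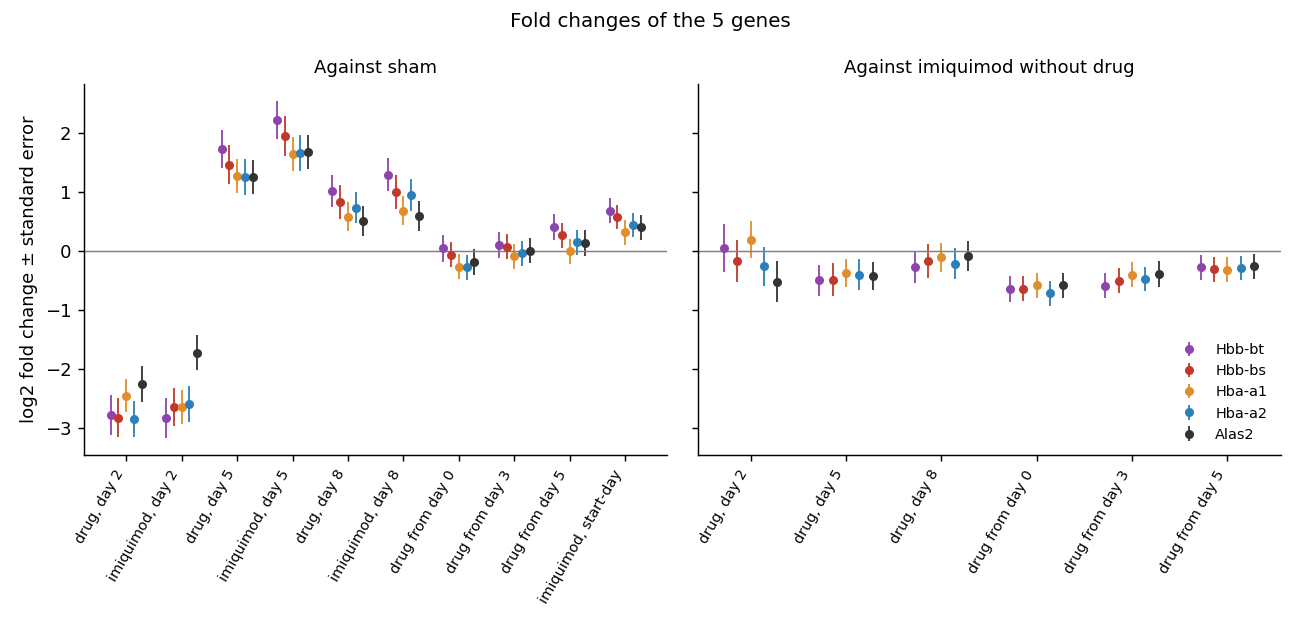
Fitted log2 fold changes of the 5 genes with their standard errors, against sham ears (left) and against imiquimod ears without the drug (right). Against sham all 5 are below 0 at day 2 and above 0 at day 5, where Hbb-bt has 1.72 in drug ears and 2.22 in imiquimod ears; against imiquimod the lowest value is -0.72, for Hba-a2 with the drug from day 0.

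At day 8 the members were higher than in sham ears by less, and the groups overlapped for every one of them. In drug ears 4 of the 5 were called higher, against 34.2% of all tested genes: Hbb-bt at 1.01 ± 0.28 (adjusted p = 0.00135, edgeR), Hbb-bs at 0.83 ± 0.29 (0.0108), Hba-a2 at 0.73 ± 0.26 (0.0145) and Hba-a1 at 0.57 ± 0.25 (0.0382). Alas2 had 0.50 ± 0.25 (0.0751). With no filter on low counts, or with only the compared groups in the fit, Hba-a1 was not called in drug ears (adjusted p = 0.0961 and 0.0853, edgeR), which leaves 3. In imiquimod ears all 5 were called, and 4 by voom, against 34.5% of all tested genes: Hbb-bt at 1.29 ± 0.28 (adjusted p = 7.1e-05), Hbb-bs at 1.00 ± 0.29 (0.00236), Hba-a2 at 0.94 ± 0.27 (0.00178), Hba-a1 at 0.68 ± 0.25 (0.0144) and Alas2 at 0.58 ± 0.25 (0.0385). Alas2 was not called there with no filter on low counts (adjusted p = 0.112, edgeR) or by voom (0.0708), nor in 5 of the 12 fits that each left out 1 library. Hbb-bt had the highest fold change of the 5 in both groups at days 5 and 8. Levels of Hbb-bt were 9.53, 14.6 and 24.4 CPM in drug ears and 11.3, 19.8 and 27.4 CPM in imiquimod ears, against 5.09, 7.31 and 12.2 CPM in sham ears. Without day 8 drug replicate 52, the drug ear with the highest summed level, 2 of the 5 were called in drug ears. Between drug and imiquimod ears at day 8 the log2 differences ran from -0.28 for Hbb-bt to -0.09 for Alas2 (adjusted p from 0.698 to 0.924, edgeR). None of the 5 was called there (0 at an unadjusted p under 0.05, and 0 by DESeq2 or voom), against 1.56% of all tested genes in either direction.

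The change over time was followed within each treatment. In imiquimod ears the members fell by day 8 relative to day 5, with log2 changes for Alas2 of -0.83 ± 0.25 (adjusted p = 0.02, edgeR), for Hbb-bt of -0.89 ± 0.26 (0.0213), for Hba-a1 of -0.82 ± 0.24 (0.022) and for Hbb-bs of -0.85 ± 0.28 (0.0409), while Hba-a2 had -0.72 ± 0.26 (0.0614). These 4 calls, against 5.88% of all tested genes called lower, depended on single libraries and on the settings. None was left without day 5 imiquimod replicate 25 or 27 or day 8 imiquimod replicate 49, 2 were left without day 8 imiquimod replicate 44, and the count was 3 to 5 in the other 8 fits that left out 1 library. Hbb-bs kept its call in 4 of the 12 such fits and was not called with no filter on low counts (adjusted p = 0.089, edgeR). In drug ears the same differences were -0.67 to -0.49 (adjusted p from 0.138 to 0.313), with 0 called, 4 at an unadjusted p under 0.05 and 0 by DESeq2 or voom, against 2.92% of all tested genes called lower. In sham ears they were -0.02 to 0.26, with 0 called by edgeR, DESeq2 or voom, 0 at an unadjusted p under 0.05, and 1.57% of all tested genes called in either direction. Leaving out any 1 sham library of these days, day 5 replicate 19 included, left 0 called, with differences from -0.15 for Hba-a2 to 0.60 for Alas2.
The difference of the imiquimod effect itself, day 8 minus day 5, was -1.09 ± 0.38 for Alas2, -0.96 ± 0.37 for Hba-a1, -0.95 ± 0.43 for Hbb-bs, -0.93 ± 0.41 for Hbb-bt and -0.71 ± 0.40 for Hba-a2. Its adjusted p ran from 0.0913 to 0.34, so edgeR called 0 of 5, with 4 at an unadjusted p under 0.05, 1 called by DESeq2 and 2 by voom, against 3.91% of all tested genes in either direction. Without day 5 sham replicate 19 or day 8 imiquimod replicate 45 edgeR called 1, which was Alas2 (-1.43 and -1.27). The difference of the drug effect (drug minus imiquimod) between these days ran from 0.19 for Hba-a2 to 0.34 for Alas2, with 0 of 5 called by edgeR, DESeq2 or voom, 0 at an unadjusted p under 0.05, and 4.81% of all tested genes called.

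The start-day experiment is a separate set of libraries, fitted on its own. There the 2 beta genes rose in imiquimod ears against sham, Hbb-bt by a log2 of 0.68 ± 0.22 (adjusted p = 0.00589, edgeR) and Hbb-bs by 0.57 ± 0.21 (0.016). Hba-a2 had 0.44 ± 0.21 (0.0587), Alas2 0.40 ± 0.21 (0.0918) and Hba-a1 0.31 ± 0.21 (0.174). These 2 calls of 5 stood against 38.1% of all tested genes called higher, a share near the background, and the groups overlapped for all 5. DESeq2 and voom each called 3, with Hba-a2 at adjusted p = 0.0399 and 0.0383, and edgeR with RLE factors called it too (0.0434). Hbb-bt had 11.6, 18.3 and 27.4 CPM in imiquimod ears, against 9.40, 11.1 and 16.5 CPM in sham ears. The count was 4 without imiquimod replicate 9 and 1 without imiquimod replicate 12.

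Ears with the drug from day 0 had all 5 members lower than in imiquimod ears. The log2 difference was -0.72 ± 0.21 for Hba-a2 (adjusted p = 0.00906, edgeR), -0.64 ± 0.21 for Hbb-bs (0.02), -0.64 ± 0.22 for Hbb-bt (0.0228), -0.58 ± 0.21 for Hba-a1 (0.0339) and -0.59 ± 0.22 for Alas2 (0.0356). The levels overlapped: Hba-a2 had 38.7, 47.5 and 73.7 CPM with the drug from day 0, against 53.04, 80.7 and 118 CPM in imiquimod ears, and Hbb-bs had 49.2, 58.0 and 93.4 CPM against 63.2, 89.9 and 140 CPM. Each was called lower, against 16.9% of all tested genes, but 1 was called without drug from day 0 replicate 30 or imiquimod replicate 10 or 12, and 3 without drug from day 0 replicate 27. DESeq2 called 5 and voom 4, with Alas2 not called (adjusted p = 0.0574, voom). At day 8 of the time course, where the drug began at least 1 day before day 0, 0 of 5 were called between drug and imiquimod ears.
Hbb-bt was the 1 member called with the drug from day 3, at -0.59 ± 0.22 (adjusted p = 0.0362). The other 4 had -0.51 to -0.39 (0.0645 to 0.163), and 3 of 5 had an unadjusted p under 0.05. Over all tested genes 16.4% were called lower, so 1 call of 5 is near the background. With each near-identical pair entered as 1 row, the beta pair had -0.52 (adjusted p = 0.0584, edgeR) and was not called. The Hbb-bt call was also lost without drug from day 3 replicate 19, 20 or 23 or imiquimod replicate 7, 10 or 12, and 3 members were called without imiquimod replicate 9.
The differences with the drug from day 5 were -0.32 to -0.26 (adjusted p from 0.283 to 0.397), with 0 called by edgeR, DESeq2 or voom and 0 at an unadjusted p under 0.05, against 12.7% of all tested genes called lower. The 3 comparisons share their imiquimod ears. The drug from day 5 against the drug from day 0, the test of the difference between these start days, gave 0.42 ± 0.21 for Hba-a2, 0.36 ± 0.22 for Hbb-bt, 0.33 ± 0.21 for Hbb-bs, 0.32 ± 0.22 for Alas2 and 0.26 ± 0.21 for Hba-a1. Their adjusted p ran from 0.427 to 0.667, with 0 called by edgeR, DESeq2 or voom and 0 at an unadjusted p under 0.05, against 0.0217% of all tested genes.

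Against sham, drug ears of the start-day experiment did not differ past the threshold. The log2 differences were -0.28 to 0.04 when the drug began on day 0, -0.09 to 0.09 when it began on day 3 and -0.01 to 0.40 when it began on day 5, with SEs of 0.21 to 0.22. edgeR called 0 of 5 in each of the 3 comparisons and none had an unadjusted p under 0.05, while 74.3%, 74.7% and 75.5% of all tested genes were called in either direction. DESeq2 also called 0 in each, and voom called 1 with the drug from day 5. edgeR called Hbb-bt there without drug from day 5 replicate 13 or 17 or sham replicate 2.

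The counts show how far the members can be told apart. Summed over the alpha pair the estimated count was a whole number, within 0.01, in 82 of 82 libraries, and likewise over the beta pair and for Alas2, whereas Hba-a1 alone was whole in 1 library, Hba-a2 in 0, Hbb-bs in 2 and Hbb-bt in 2. Reads of a pair were thus divided between its genes. In GENCODE M21 transcripts, 91.0% of the 31-base words of Hba-a2 also lie in Hba-a1 and 71.3% of those of Hba-a1 in Hba-a2, and 66.9% of those of Hbb-bs lie in Hbb-bt and 59.4% of those of Hbb-bt in Hbb-bs. No word was shared between alpha, beta and Alas2 transcripts. Values of single members of a pair are therefore uncertain, and the summed pairs, 216140 counts of alpha and 176959 of beta over all libraries, against 7316 of Alas2, are firmer. When each pair was entered as 1 row, both pairs and Alas2 were still called at day 5 in both treated groups.

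The ratio of beta to alpha counts was higher by median in every treated group than in its sham ears from day 5 on, though some of these groups overlapped with sham. At day 5 it was 0.788, 0.805 and 0.866 in drug ears and 0.826, 0.878 and 0.889 in imiquimod ears, against 0.666 to 0.726 in sham ears, with no overlap of either treated group with sham. At day 8 it was 0.775, 0.816 and 0.832 in drug ears and 0.740, 0.825 and 0.849 in imiquimod ears, against 0.658, 0.707 and 0.759 in sham ears, where the drug ears alone stayed apart. In the start-day experiment it was 0.822, 0.890 and 0.952 for a start on day 0, 0.802, 0.830 and 0.873 for day 3, 0.830, 0.870 and 0.900 for day 5 and 0.831, 0.865 and 0.930 in imiquimod ears, against 0.720, 0.749 and 0.828 in sham ears. There the imiquimod ears and the ears with the drug from day 5 lay above every sham ear. At day 2, with few counts in treated ears, it was 0.536, 0.669 and 0.750 in drug ears and 0.403, 0.706 and 0.837 in imiquimod ears, around the 0.684, 0.745 and 0.770 of sham ears. These are ratios of counts, not of molecules, since the transcripts differ in length, and no test was made on them.
Within the beta pair, Hbb-bt took 16.2% to 19.02% of the counts in imiquimod ears at day 8 and 11.2% to 15.9% in sham ears, which did not overlap. In every other group comparison this share overlapped. Hba-a2 took group medians of 52.6% to 61.9% of the alpha pair, and the groups overlapped in every comparison. Alas2 had group medians of 15.7 to 25.4 counts for each 1000 haemoglobin counts, except in day 2 imiquimod ears, which ran from 10.5 to 112 with a median of 35.3, where libraries held 7 to 25 Alas2 counts. The value of 112 was in replicate 10, which held 25 Alas2 counts and the fewest haemoglobin counts of that group, 223.

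**Figure D3:**
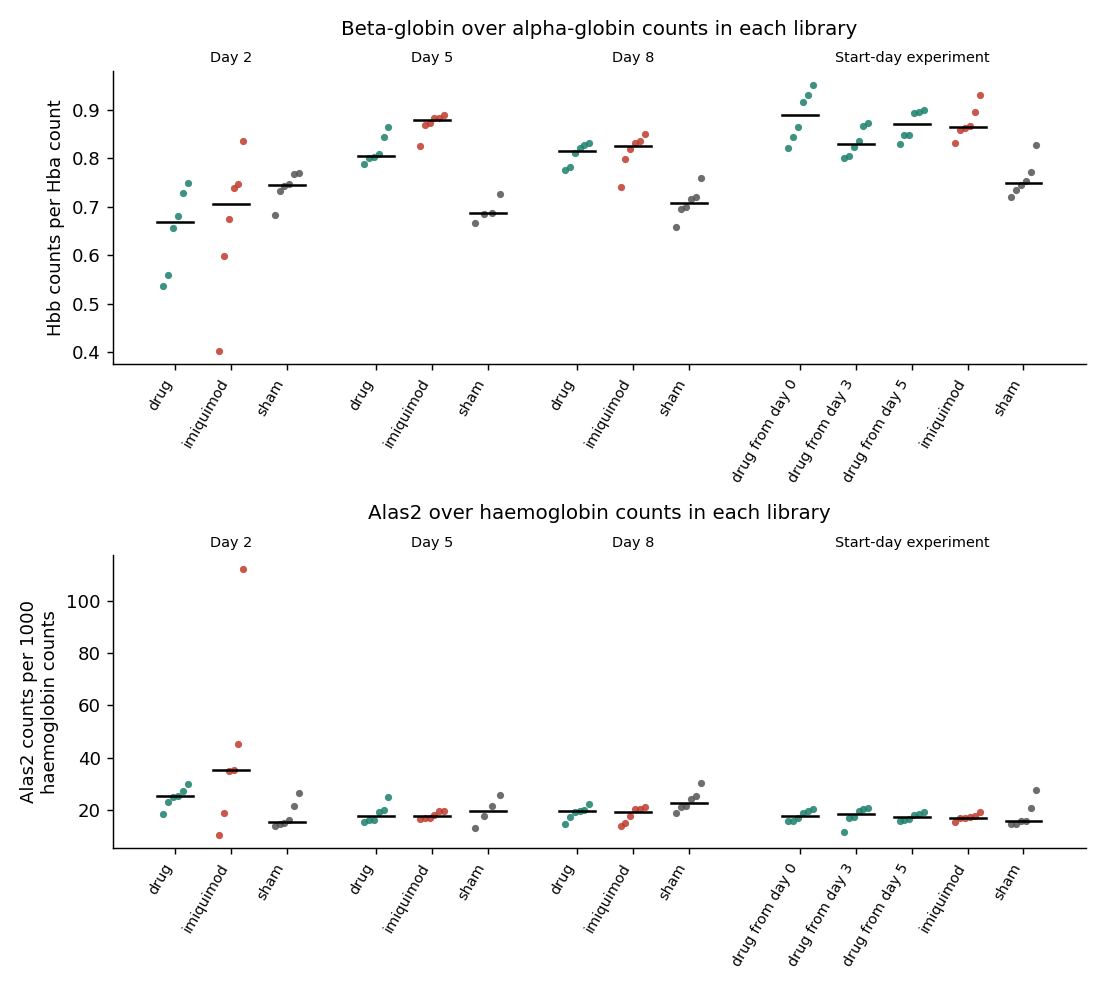
Ratio of beta to alpha haemoglobin counts (Hbb-bs with Hbb-bt over Hba-a1 with Hba-a2) in the upper panel and Alas2 counts per 1000 haemoglobin counts in the lower panel, in each library, by group; points are libraries in order of value and bars are medians. At day 5 the beta to alpha ratio is 0.788 to 0.866 in drug ears and 0.826 to 0.889 in imiquimod ears, above the 0.666 to 0.726 of sham ears.

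Other red cell genes were scarce. Of the embryonic and minor globins, Hbb-y had 5 counts over all 82 libraries, Hbb-bh1 6, Hba-x 5, Hbq1a 36 and Hbq1b 10, while Hbb-bh2 and Hbb-bh3 had 0, and none was tested. Slc4a1, the band 3 anion exchanger of the red cell membrane, was called higher in both treated groups at days 5 and 8. At day 5 it had 8 to 18 counts in drug ears and 15 to 32 in imiquimod ears, against 0, 1, 1 and 8 in sham ears, and at day 2 it had at most 2 in drug ears, 6 in imiquimod ears and 10 in sham ears, where the 3 groups overlapped. At day 5 it rose by a log2 of 2.53 ± 0.74 in drug ears (adjusted p = 0.0028, edgeR) and 3.47 ± 0.73 in imiquimod ears (3.9e-05). At day 8 it was higher by 2.57 ± 0.67 in drug ears (8.1e-04) and 2.55 ± 0.69 in imiquimod ears (0.00104). It then had 3 to 22 counts in drug ears, 2 to 15 in imiquimod ears and 0 to 4 in sham ears, and each treated group overlapped with sham. In the start-day experiment it was higher by 0.93 ± 0.39 in imiquimod ears (0.0311, edgeR), which overlapped with sham ears as well. With the drug from day 0 it differed from imiquimod ears by -0.25 (0.652) and was not called. Slc4a1 was singled out after its values were seen.

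Across all tested genes at day 5, 31.1% were called higher and 29.3% lower in drug ears against sham, and 34.6% higher and 35.9% lower in imiquimod ears, and the day 5 counts of each list that follows stand beside these shares. Of 14 tested genes of the 18 in the red cell membrane list, Slc4a1 included, 2 rose and 7 fell in drug ears at day 5 (median log2 fold change -0.44) and 2 rose and 9 fell in imiquimod ears (-0.57), beside medians of -0.02 and -0.04 over all tested genes. The 2 that rose were Slc4a1 and Epb41 in both, and Epb41 (protein 4.1) is also made by many other cells, as are Ank1, Sptb, Tmod1 and Aqp1, which had 36105 to 254167 counts each over all libraries. In the start-day experiment 2 of 13 rose and 10 fell in imiquimod ears (median -1.43, beside -0.02 over all tested genes), where 38.1% of all tested genes were called higher and 39.9% lower. The skeletal muscle and cartilage lists were lower in treated ears as well. Summed muscle markers had day 5 medians of 4243 CPM in drug ears, 3177 CPM in imiquimod ears and 6169 CPM in sham ears, and cartilage markers 625, 467 and 1134 CPM. Of 12 muscle markers 11 fell in drug ears and 12 in imiquimod ears at day 5, and of 12 cartilage markers 10 and 11, with none called higher, against the 29.3% and 35.9% of all tested genes called lower. The part of this makeup in the member values was not tested.
Of 10 tested genes of the 18 erythroid regulators and enzymes, 5 rose and 3 fell in drug ears at day 5 and 5 rose and 4 fell in imiquimod ears, against 31.1% higher and 29.3% lower, and 34.6% higher and 35.9% lower, of all tested genes. Bnip3l, Epor, Nfe2, Slc25a37 and Tfrc rose in both. Tfrc, the transferrin receptor, which all dividing cells use, rose by 1.16 ± 0.08 in drug ears (adjusted p = 3.4e-18, edgeR) and 1.49 ± 0.08 in imiquimod ears (3.4e-22), and Nfe2, a factor of erythroid cells and megakaryocytes, by 3.75 ± 0.54 in imiquimod ears (2.9e-08). Hemgn, a nuclear protein of erythroid precursors, fell, with a log2 fold change of -2.09 ± 0.45 in drug ears (8.8e-05) and -3.11 ± 0.51 in imiquimod ears (3.9e-07), from low levels with medians of 0.19 CPM in drug ears, 0.10 CPM in imiquimod ears and 0.99 CPM in sham ears. Klf1, the erythroid factor that reads CACCC elements, had 282 counts over all libraries, and Gata1 460.

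Haem synthesis genes outside Alas2 moved both ways. All 9 were tested, and at day 5 4 rose and 4 fell in drug ears while 3 rose and 4 fell in imiquimod ears, beside the same shares of all tested genes as above. Cpox, coproporphyrinogen oxidase, rose by 1.09 ± 0.09 in drug ears (adjusted p = 9.2e-15, edgeR) and 1.28 ± 0.09 in imiquimod ears (1.9e-17). Alad, the enzyme after Alas2 in the pathway, fell, with a log2 fold change of -0.83 ± 0.09 in drug ears (1.8e-11) and -1.42 ± 0.09 in imiquimod ears (4.2e-19). These enzymes work in every cell that makes haem, and their direction was not shared by the list.

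Genes that bind or clear haemoglobin and haem were called in both directions. Of the 13 in the list, 5 rose and 3 fell in drug ears at day 5 (median 0.20) and 9 rose and 3 fell in imiquimod ears (0.65), and between drug and imiquimod ears 1 was called higher and 9 lower (-0.50), where 18.3% of all tested genes were called higher and 17.2% lower. At day 2 the summed level of the list overlapped between the groups, at 2594 to 2960 CPM in drug ears, 2596 to 3128 CPM in imiquimod ears and 2819 to 2936 CPM in sham ears. Most counts of the list were of Fth1 (2.59e+06 over all libraries), Lrp1 (1.45e+06) and Ftl1 (1.13e+06), against 202103 of Hp and 183520 of Hmox1. The sum may thus not follow haemoglobin clearance alone. Hp, haptoglobin, which binds free haemoglobin, rose by 2.30 ± 0.28 in drug ears (adjusted p = 1.1e-09, edgeR) and 2.89 ± 0.28 in imiquimod ears (2.7e-12). Slc40a1, the iron exporter ferroportin, fell, with a log2 fold change of -0.95 ± 0.15 (3.6e-07) and -1.52 ± 0.15 (2.3e-12). In imiquimod ears of the start-day experiment 9 rose and 3 fell, where 38.1% of all tested genes were called higher and 39.9% lower. Among them Hmox1, haem oxygenase, rose by 2.26 ± 0.10 (1.4e-17, edgeR) and Cd163, the macrophage receptor for haptoglobin with haemoglobin, by 1.12 ± 0.10 (7.8e-11). Hmox1 there had medians of 105, 122 and 140 CPM with the drug from day 0, 3 and 5, against 182 CPM in imiquimod ears and 37.03 CPM in sham ears. With the drug from day 0 it fell, with a log2 fold change of -0.77 ± 0.10 (1.1e-06) against imiquimod ears, and 9 of the 13 genes were called lower and 1 higher, where 16.9% of all tested genes were called lower and 18.2% higher.

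Platelet and endothelial lists were read as markers of other blood and vessel elements. Of 8 tested platelet markers, 4 rose and 0 fell in drug ears at day 5 and 6 rose and 1 fell in imiquimod ears, against 31.1% and 34.6% of all tested genes called higher. Pf4, platelet factor 4, which macrophages also make, rose by 1.09 ± 0.13 in drug ears (adjusted p = 1.1e-09, edgeR) and 1.80 ± 0.14 in imiquimod ears (2.7e-16). The summed platelet level at day 5 had medians of 67.9 CPM in drug ears, 95.6 CPM in imiquimod ears and 42.3 CPM in sham ears, with ranges that did not overlap. Most counts of this list over all libraries were of Pf4, Gp1bb, Itga2b and Itgb3, so the sum may not follow platelets alone. In ears with the drug from day 0, 3 of 7 tested platelet markers were lower than in imiquimod ears and 0 higher, against 16.9% of all tested genes called lower. Pf4 was at -0.48 ± 0.09 there (9.8e-05, edgeR). Of the 15 endothelial markers, 2 rose and 9 fell in drug ears at day 5 and 4 rose and 5 fell in imiquimod ears, where 29.3% and 35.9% of all tested genes were called lower. Cldn5, a tight junction claudin, fell, with a log2 fold change of -1.06 ± 0.11 (4.1e-12) and -1.45 ± 0.11 (1.4e-16), and Plvap, a protein of fenestrated and activated vessels, rose by 0.72 ± 0.09 (2.0e-09) and 0.98 ± 0.09 (1.6e-13). The summed endothelial level at day 5 had medians of 399 CPM in drug ears, 468 CPM in imiquimod ears and 429 CPM in sham ears. As for vessels, 9 of 15 endothelial markers were lower with the drug from day 0 than in imiquimod ears and 0 higher, against 16.9% of all tested genes called lower.

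**Figure D4:**
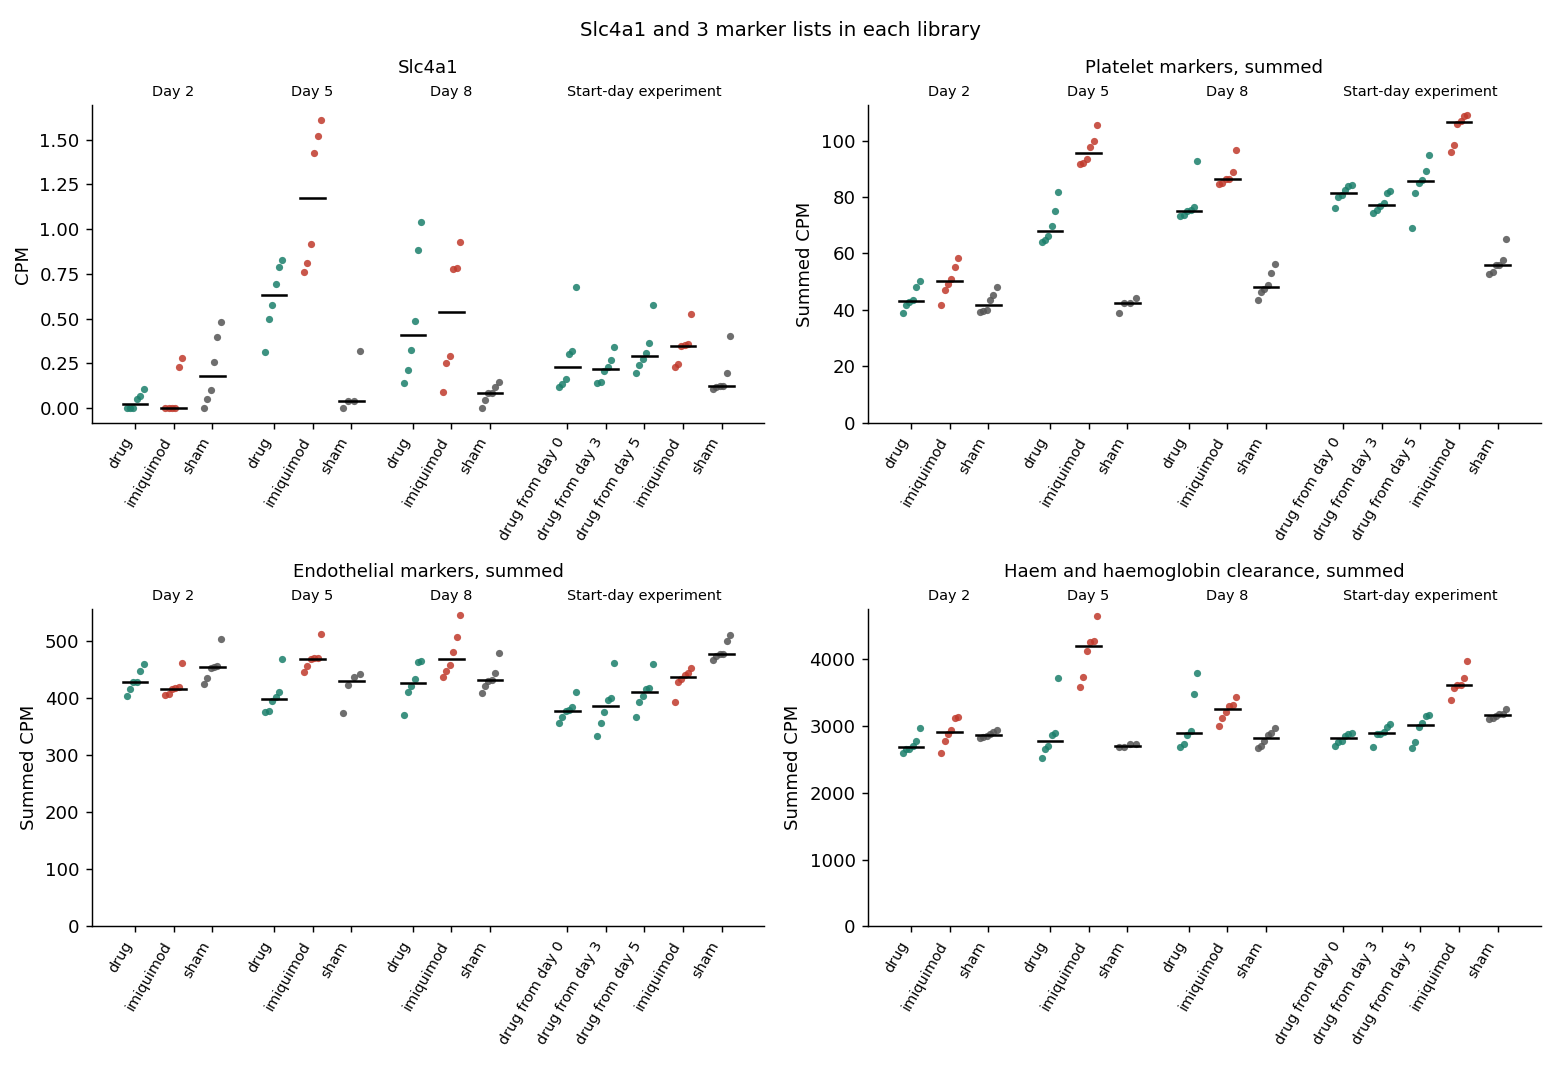
CPM of Slc4a1 and summed CPM of the platelet, endothelial and haem and haemoglobin clearance lists in each library, by group; points are libraries in order of value and bars are medians. At day 5 the platelet sum has medians of 67.9 CPM in drug ears, 95.6 CPM in imiquimod ears and 42.3 CPM in sham ears, and the endothelial sum 399, 468 and 429 CPM.

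Neutrophil markers had summed day 5 medians of 1993 CPM in drug ears, 5757 CPM in imiquimod ears and 82.9 CPM in sham ears, and at day 2, where the members were low, 161, 601 and 80.2 CPM. Most counts of this list were of S100a8 (2.57e+06 over all libraries) and S100a9 (3.04e+06), against 102372 of Il1r2 and 267 of Ly6g. The sum may thus not follow neutrophils alone. Keratinocyte markers had day 5 medians of 61678 CPM in drug ears, 49858 CPM in imiquimod ears and 32688 CPM in sham ears, and day 2 medians of 45240, 43473 and 29238 CPM. At day 2 the summed neutrophil level overlapped between drug ears, at 116 to 246 CPM, and sham ears, at 70.6 to 125 CPM. The part of these marker levels in the member values was not tested.

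Each of the 5 members followed the summed level of the 4 haemoglobin genes closely across libraries, with Pearson r of 0.943 to 0.999 over 52 time course libraries and 0.860 to 0.991 over 30 start-day libraries, which for those 4 is in part by construction, since they are in the sum. Among 14772 other genes the most alike, by the lower of the r in the 2 experiments, was Col13a1, which encodes collagen XIII, with 0.81 and 0.57. Igfbp4, an insulin-like growth factor binding protein, followed with 0.57 and 0.58 and Sorcs2, a sortilin-family receptor, with 0.66 and 0.55. The others of the first 10 were Elk3, Lasp1, Steap2, S1pr3, Hrh1, Myo7a and B4galt6, the last with 0.48 and 0.47. These values describe libraries that share groups, days and depth, and the time course r includes the day 2 libraries on which the members were chosen.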

How the data were processed

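Per the labels, ears were stored in RNAlater, RNA came from TRI reagent, and 1 µg went into each Tecan Universal Plus mRNA library. The deposited values are estimated counts per gene, which the authors made with salmon per the file names, on build GRCm39 per the submitters' processing notes. The salmon version, the annotation and the strand setting were not given in the sources used here. The estimated counts were rounded, and genes passing filterByExpr were tested with edgeR 4.0.16 in R 4.3.3 (TMM factors, robust quasi-likelihood F test, 1 coefficient per group, 1 fit per experiment), with Benjamini-Hochberg adjustment over all tested genes. Levels are CPM computed from the counts with TMM scaling. Depth was 13.1 M to 35.5 M counts per library, and low counts limit Slc4a1 and day 2 Alas2. Groups were taken from the labels. No pair of replicates agreed within sampling noise (the smallest chi-square per gene over 201 pairs was 4.14). On simulated data for day 5 imiquimod against sham, with 16977 genes in the step, 64%, 90%, 98% and 100% of genes changed 1.5-, 2-, 4- and 8-fold were called. There were 10 false calls. The simulation fitted only the compared groups and changed 50 genes of each size, drawn from the better counted genes. The main fit held all time course groups and called far more genes, so these rates may not carry over to it or to scarce genes. The alternatives were RLE factors, no filter or a filter at 1 CPM, DESeq2 1.42.0, limma 3.58.1 voom with sample weights, only the compared groups, the near-identical copies summed, library sizes without the 5 genes, and each library left out in turn. The members and gene lists were chosen with earlier results of these data known. Genes named besides the members were up to 3 called genes of a list with the smallest adjusted p in a comparison, and the 10 genes most like the summed haemoglobin level among genes with a mean log2 CPM (prior count 2) of at least 0. Some results are not reported here.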

Additional observations from a re-analysis of the deposited data

Results flagged for a closer look

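In 84 checks of a library against its group, by Dixon's ratio of the gap to the range, 13 values stood apart. Chance gives about 1 in 20 for a single check, but these checks cover genes that move together and their sum. They are not independent, so their count cannot be compared with that rate. Day 5 drug replicate 36 was far above the other drug ears in the summed level (ratio 0.71, 459 CPM), Hba-a1 (0.638, 103 CPM) and Hbb-bs (0.776, 169 CPM). With the drug from day 0, replicate 25 was far above the others in the summed level (0.685, 237 CPM), Hba-a2 (0.640, 73.7 CPM) and Hbb-bs (0.680, 93.4 CPM). With the drug from day 3, replicate 20 was far below the others in Hba-a1 (0.630, 30.2 CPM). Day 5 sham replicate 19 was far above the other sham ears in the summed level (0.905, 197 CPM), Hbb-bs (0.932, 67.3 CPM) and Hbb-bt (0.869, 11.3 CPM). Start-day sham replicate 2 was far above the others in the summed level (0.629, 266 CPM), Hba-a2 (0.632, 90.0 CPM) and Hbb-bt (0.743, 16.5 CPM).

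Every treated ear lay below every sham ear at day 2 and above every sham ear at day 5, for each of the 5 genes. The log2 effect at day 5 minus that at day 2 was 4.50 in drug ears and 5.04 in imiquimod ears for Hbb-bt, 4.28 and 4.59 for Hbb-bs, 3.72 and 4.29 for Hba-a1, 4.10 and 4.24 for Hba-a2, and 3.50 and 3.40 for Alas2. These differences were not tested, since the day 2 values chose the genes.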

How the results depend on the processing

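All 5 members stayed called against sham at day 5, in drug and in imiquimod ears, under every alternative run. Of 760 values of single genes under other settings 725 kept their direction and side of the threshold, and of 1220 with a library left out 1117 did. None of the called values changed sign. The cause of the changes below was not tested. For the change of the imiquimod effect, 1 member was called by DESeq2 and 2 by voom, and 0 to 1 with a library left out. For drug against imiquimod at day 5, 1 was called with only the compared groups. For the drug from day 0 against imiquimod, 4 were called by voom, 3 with no filter and 3 with only the compared groups, and 1 to 5 with a library left out. For the drug from day 3 against imiquimod, 0 were called with no filter, 0 with copies summed and 2 with only the compared groups, and 0 to 3 with a library left out. For the drug from day 5 against sham, 1 was called by voom and 0 to 1 with a library left out. With a library left out, 2 to 5 were called for drug against sham and 4 to 5 for imiquimod against sham at day 8, 0 to 5 for imiquimod at day 8 against day 5, and 1 to 4 for imiquimod against sham in the start-day experiment.

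Small differences that were not called changed sign. Hba-a1, with the drug from day 5 against sham, was 0.0078 with RLE factors, 0.00044 with no filter, 0.084 with copies summed, 0.0067 by DESeq2 and 0.10 by voom. Sham Hba-a2 at day 8 against day 5 was 0.048 with copies summed and 0.13 by voom, Alas2 in drug against imiquimod ears at day 8 was 0.013 by voom, Alas2 with the drug from day 3 against sham was -0.011 with a 1 CPM filter, and Hbb-bt with the drug from day 0 against sham was -0.050 with copies summed. With a library left out, the drug from day 0 against sham gave -0.21 to 0.083 for Hbb-bs and -0.11 to 0.17 for Hbb-bt. The drug from day 3 against sham gave -0.085 to 0.13 for Alas2, -0.14 to 0.045 for Hba-a1 and -0.10 to 0.10 for Hba-a2. The drug from day 5 against sham gave -0.069 to 0.23 for Alas2, -0.16 to 0.13 for Hba-a1 and -0.036 to 0.28 for Hba-a2. Drug against imiquimod at day 8 gave -0.24 to 0.093 for Alas2 and -0.27 to 0.0059 for Hba-a1. Sham at day 8 against day 5 gave -0.15 to 0.25 for Hba-a2, -0.011 to 0.36 for Hbb-bs and -0.13 to 0.28 for Hbb-bt. No paired analysis was possible because the groups compared share no replicate numbers. Few counts limit Slc4a1 and the Alas2 ratios at day 2.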
